A study of Mus musculus with 3 samples.

Results

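Fully grown mouse oocytes carry microRNAs and short interfering RNAs of nearly the same length, and the inserts of 19 to 22 nt were compared between the 2 libraries of the study that hold them, one cut from a gel at 19-24 nt and one at 19-30 nt. The members are the reads in which the 3′ linker placed the end of the insert at 19, 20, 21 or 22 nt, the lengths that the reads of both libraries can size. They numbered 310725 of the 764539 reads of the 19-24 nt library (40.6%) and 245697 of the 943811 reads of the 19-30 nt library (26.03%). The 2 libraries were not sized equally strictly, since their reads are 26 and 36 nt long. With the 36 nt reads cut to 26 nt, 311806 reads of the 19-30 nt library were sized at 19 to 22 nt. The study holds 3 libraries in all, and the third, cut at 24-30 nt with 1484509 reads, does not enter the comparison.

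All libraries came from fully grown oocytes of mice given 5 IU of PMSG, a gonadotropin that stimulates follicle growth, 48 hours before they were killed. The strain, the age and the number of mice are not given in the sources used here. RNA was extracted with Trizol, size-selected, ligated to adapters, amplified and read on an Illumina 1G sequencer, in reads of 26 nt for the 19-24 nt library and 36 nt for the 19-30 nt library. Each window was sequenced as 1 library without a replicate, and the gel window, the preparation and the sequencing run cannot be told apart. Intervals given in parentheses are 95% intervals that cover counting error only, since amplified reads without molecular identifiers are not independent molecules.

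MicroRNAs are cut from hairpin transcripts by Drosha and Dicer and recognise messenger RNAs mainly through the seed, bases 2 to 8 from the 5′ end. Mouse oocytes also make endogenous siRNAs: double-stranded RNA, formed by inverted repeats or by a coding transcript pairing with an antisense pseudogene transcript, is diced without Drosha and loaded into Argonaute proteins. An insert antisense to a coding exon is therefore a common sign of such an siRNA, but no proof of one.

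The mature microRNAs below carry the contrasts described later, and are grouped by seed because microRNAs with the same seed could take opposite sides. The sequences are those of RefSeq on GRCm38.p6, written 5′ to 3′, with the seed in capitals.
miR-322-5p: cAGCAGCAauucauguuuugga
miR-497a-5p: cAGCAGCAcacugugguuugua
miR-15b-5p: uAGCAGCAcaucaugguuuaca
miR-16-5p: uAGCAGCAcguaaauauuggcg
miR-351-5p: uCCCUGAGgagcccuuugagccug
miR-125a-5p: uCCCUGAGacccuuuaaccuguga
miR-125b-5p: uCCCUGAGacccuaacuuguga
miR-130a-3p: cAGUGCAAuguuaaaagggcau
miR-301a-3p: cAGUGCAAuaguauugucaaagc
miR-106b-5p: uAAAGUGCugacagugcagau
miR-20a-5p: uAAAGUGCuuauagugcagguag
miR-93-5p: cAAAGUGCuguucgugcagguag
let-7c-5p: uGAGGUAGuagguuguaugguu
let-7a-5p: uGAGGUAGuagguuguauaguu
miR-202-5p: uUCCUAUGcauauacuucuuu
miR-294-3p: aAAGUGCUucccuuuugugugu
miR-182-5p: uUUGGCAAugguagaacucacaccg

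The second set is of inserts that match genes and pseudogenes, shown because they are the most frequent inserts of their locus in one library or both. Each is given by its first 20 bases as read (19 for the last), with T for U and the first base, which the text compares later, in capitals. The coordinates are those of the matched bases on GRCm38 with the strand of the insert. The Rangap1 inserts had 3 places each among the transcripts and the Ppp2r5a insert 4, of which 1 is printed, so their source is not settled. The other inserts had 1 place.
Cwc22 antisense, chr2:77895916-77895935, plus: Tactttatacaagagttctc
Cwc22 antisense, chr2:77895973-77895992, plus: Attaagtgtaaggcatgttc
Rangap1 antisense, chr15:81712854-81712873, plus: Tgttgtcatttaggttgatg
Rangap1 antisense, chr15:81712851-81712870, plus: Aggtgttgtcatttaggttg
Gm31941 antisense, chr7:46975541-46975560, minus: Gtgctgtctgactagtgacg
Gm31941 antisense, chr7:46975542-46975561, minus: Tgtgctgtctgactagtgac
Ppp2r5a antisense, chr1:191387533-191387552, plus: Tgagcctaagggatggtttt
Gm7162 sense, chr17:12819990-12820009, minus: Tgttgccttcgcagatgctg
Fgg antisense, chr3:83012836-83012854, minus: Atccccggcatctccacca

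MicroRNAs took 76.1% of the matched short inserts of the 19-24 nt library (75.9 to 76.3) and 15.5% of those of the 19-30 nt library (15.3 to 15.8), a ratio of 4.90 (4.82 to 4.99). Inserts antisense to coding exons made up 4.68% and 19.5%, pseudogene inserts 2.91% and 13.2%, and inserts on long non-coding RNA (lncRNA) genes 7.50% and 29.1%. With the microRNAs set aside, the rest was divided more alike: coding antisense inserts were 19.6% and 23.1% of the remainder, pseudogene inserts 12.2% and 15.7%, and lncRNA inserts 31.4% and 34.5%. Inserts on other small RNA genes, such as those of small nucleolar RNAs, were the exception, at 4.80% against 1.11%. The shares rest on 155378 matched inserts in the 19-24 nt library, which were 50.1% of its usable short inserts (49.97 to 50.32), and 93469 in the 19-30 nt library, 38.1% (37.9 to 38.3). The unmatched inserts were not analysed, and a class or gene without reads could hold up to 0.00193% and 0.00321% of the matched inserts.

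**Figure D1:**
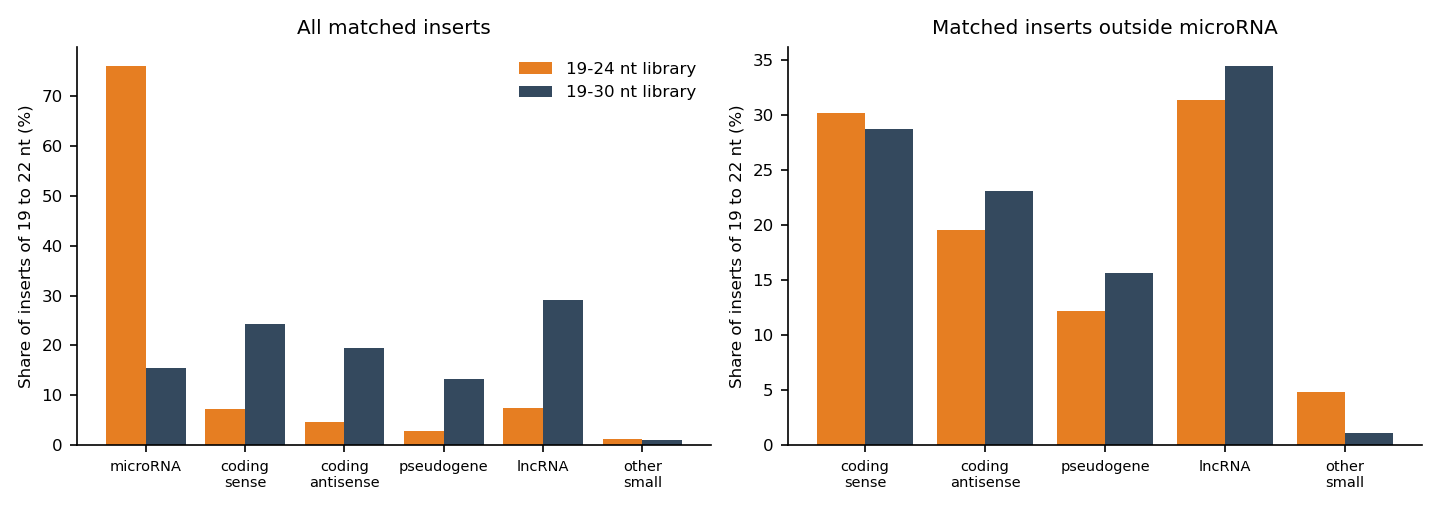
Share (%) of the matched inserts of 19 to 22 nt in each class, in the 19-24 nt (orange) and 19-30 nt (dark) libraries, over all matched inserts (left) and over those outside microRNA (right). MicroRNA bars stand at 76.1% and 15.5% on the left, and on the right coding sense, coding antisense, pseudogene and lncRNA bars of the libraries stand within 4 points of each other.

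Because of this load, each hairpin or gene was compared as its share of its own class, and the ratio given is that share in the 19-24 nt library over that in the 19-30 nt library, with a count below 3 raised to 3. Features with at least 20 reads over both libraries were compared, and those that differed by 4-fold or more were counted as called, a description with no test. Of 756 hairpins with reads, 209 met the minimum, and 73 of them (34.9%) were called: 35 (16.7%) with the larger share in the 19-24 nt library and 38 (18.2%) with the larger share in the 19-30 nt library. Of the 6915 coding genes with antisense reads, 193 met it and 4 (2.07%) were called. For pseudogenes the values were 2655, 141 and 1 (0.709%), and for lncRNA genes 4144, 282 and 12 (4.26%). The share of features within 2-fold of each other in the libraries was 37.3% for hairpins, 88.1% for coding antisense genes, 95.7% for pseudogenes and 90.8% for lncRNA genes. The ratio was below 1 for 89 hairpins (42.6%), 138 coding antisense genes (71.5%), 101 pseudogenes (71.6%) and 221 lncRNA genes (78.4%), and above 1 for the other 57.4%, 28.5%, 28.4% and 21.6%. The SD of the log2 ratio was 2.42 for hairpins and 0.86, 0.47 and 0.94 for the other classes in the same order. The interval of the ratio did not hold 1 for 145 hairpins, 28 coding antisense genes, 11 pseudogenes and 56 lncRNA genes. Depth differed between classes: the median compared hairpin had 122 reads in the first library and 13 in the second, and the median coding antisense gene 8.14 and 24.8. A hairpin with 3 or fewer reads in the 19-30 nt library had to reach 98 reads in the other to be called, while in the reverse case the minimum of 20 reads over both libraries was the limit, so the 2 directions were not equally easy to call.

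**Figure D2:**
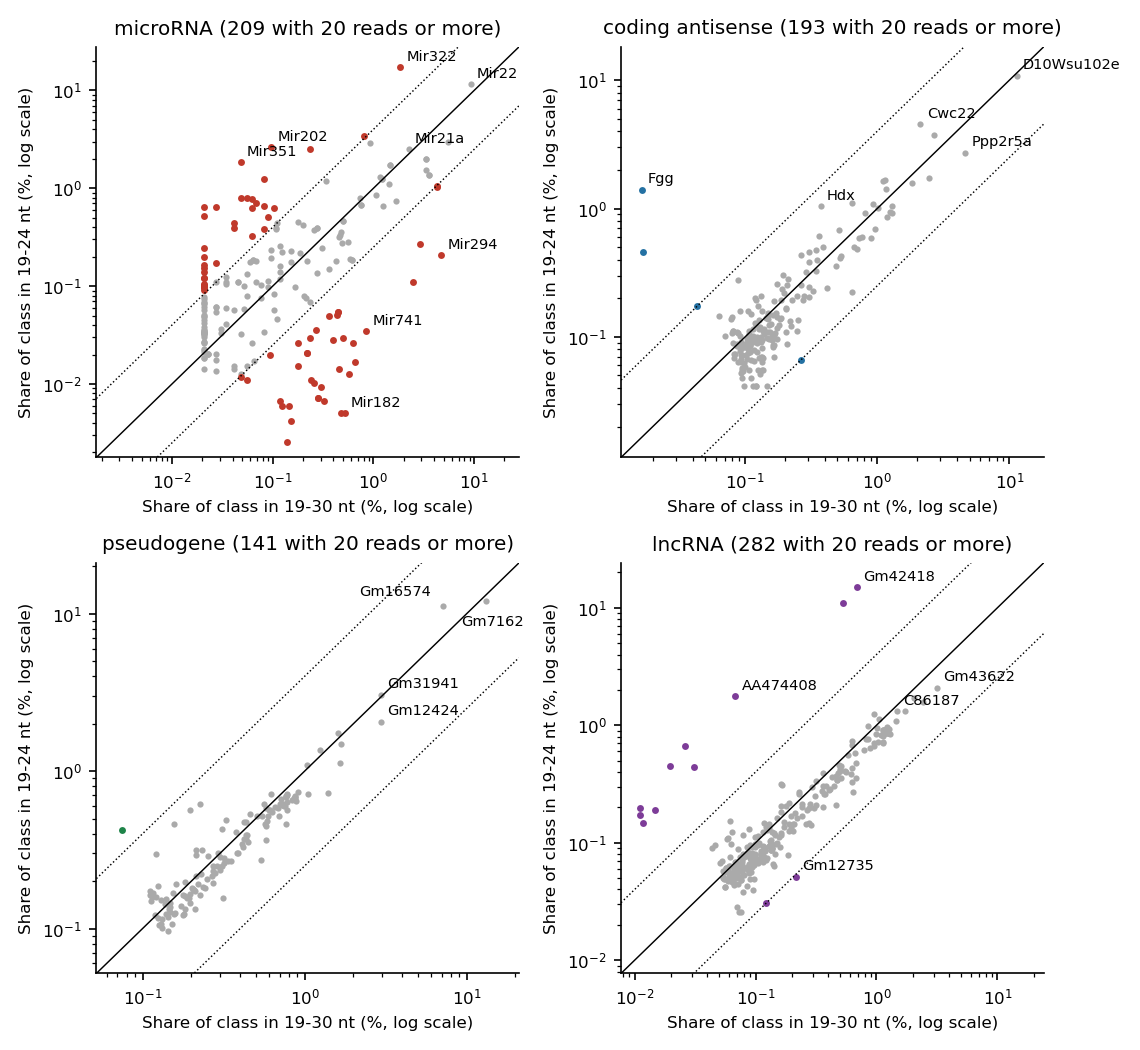
Share of the class (%, log scales) of each feature with 20 reads or more in the 19-30 nt library (x) and the 19-24 nt library (y), with counts under 3 raised to 3, equal shares as a solid line and 4-fold differences as dotted lines. Coloured points lie past 4-fold: 73 of 209 hairpins against 4 of 193 coding antisense genes, 1 of 141 pseudogenes and 12 of 282 lncRNA genes.

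Mir322, on the X chromosome at 53054255 to 53054349 on the minus strand, was the most frequent hairpin of the 19-24 nt library with 20534 reads, 17.4% of its microRNA inserts. It had 267 reads, or 1.84%, in the library cut at 19-30 nt, a ratio of 9.44 (8.37 to 10.7). Mir22, on chromosome 11, came first in the 19-30 nt library with 1337 reads and counted 13756 in the other, and its shares of 9.21% and 11.6% lay close together (ratio 1.26, 1.19 to 1.34). Mir21a, known from many tissues and from tumours, was also close to even, with 2966 and 326 reads (1.12, 0.996 to 1.26). Mirlet7g, with 3542 and 806 reads, leaned to the 19-30 nt library (0.540, 0.500 to 0.583).

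The widest ratios toward the 19-24 nt library belonged to Mir351, Mir451a, Mir202, Mir547 and Mir339. Mir351 lies beside Mir322 and had 2202 reads against 7, a ratio of 38.6 (18.7 to 96.2), which was 10.3 when the longer reads were first cut to 26 nt. Mir202, a microRNA of the gonads, had 3140 reads against 14 (27.5, 16.4 to 50.4), and its 5p strand alone 2296 against 3. Mir451a, abundant in red blood cells, had 752 reads against 2, with a ratio of 46.2 before the count of 2 was raised (12.7 to 381.9). Mir547 had 611 reads against 3 (interval 8.52 to 121.6) and Mir339 766 against 4 (23.5, 9.15 to 86.5). Each of these 5 hairpins was nearly empty in the 19-30 nt library, so the intervals are wide, and each lies above 1.

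In the other direction the widest ratios were those of Mir182, Mir155, Mir200c, Mir335 and Mir183. Mir182 had 6 reads in the 19-24 nt library against 75, a ratio of 0.00982 (0.00349 to 0.0224), and Mir155, known from lymphocytes, 6 and 69 (0.0107, 0.00379 to 0.0244). Mir200c had 8 and 47 reads, Mir335 15 and 83, and Mir183 20 and 96. For these hairpins the 19-30 nt library held more reads outright although it had 14512 microRNA inserts against 118204. Of their main matures, miR-182-5p is annotated at 25 nt and miR-155-5p, miR-200c-3p and miR-335-5p at 23 nt. Only shorter forms of these 4 were compared. On the side of the 19-24 nt library the same holds for miR-351-5p (24 nt) and miR-339-5p (23 nt). The third hairpin of the 19-30 nt library, Mir294 of the early embryo cluster on chromosome 7, had 243 reads against 685 (0.0436, 0.0375 to 0.0505). Mirlet7a-1 and Mirlet7a-2, whose mature sequence is shared, were just past the 4-fold line at 0.246 and 0.243, and were no longer called with a match over 18 nt (0.710 and 0.706) or with every match counted in full (0.755 and 0.745).

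The hairpins were also grouped into lists by genomic cluster, family or tissue, and the medians below stand beside a median ratio of 1.18 and called shares of 16.7% and 18.2% over all 209 hairpins. Of the X-linked cluster expressed in germ cells, 20 of 22 annotated hairpins had reads and 12 met the minimum, and 10 were called toward the 19-30 nt library, with a median ratio of 0.0433. Mir741 had 41 and 123 reads (0.0409) and Mir880 35 and 72 (0.0597). Mir547 of the same list went the other way and was the only member called toward the 19-24 nt library. Mir201, with 57 reads against 1, leaned the same way as Mir547 without being called. The list summed to 0.710% and 3.47% of microRNA inserts, a ratio of 0.205 (0.183 to 0.229) that was 0.0560 without Mir547. All 4 members of the early embryo clusters that met the minimum were called toward the 19-30 nt library, with Mir294 followed by Mir292 at 17 and 66 reads. Their list held 0.267% and 5.66%.

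The called members of the miR-182, miR-200 and brain lists, 2 in each, were called toward the 19-30 nt library. Mir182 and Mir183, which are transcribed together with Mir96 and known from sensory organs, summed with it to 0.0228% and 1.23%. Of the miR-200 family, known for keeping epithelial identity, 5 hairpins met the minimum, and Mir141 (129 and 358 reads) and Mir200c were called. Mir200a stood at 0.356, Mir200b at 0.645 and Mir429 at 2.24, so the family did not lie on one side. Mir205, an epithelial microRNA of none of the lists, had 450 and 12 reads, was called toward the 19-24 nt library (interval of the ratio 2.61 to 8.98) and was chosen after its values were seen. From the brain list the hairpins Mir128-1 and Mir128-2, which share their reads, were the only ones of 12 with reads to meet the minimum, at 0.0955. The defining neural microRNA miR-124 was at 0 in the 19-24 nt library and had 0.667 weighted reads for each of its 3 hairpins in the other.

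Summed shares were larger in the 19-24 nt library for the blood list and for that of granulosa and stromal cells. The granulosa and stroma list had 10 hairpins over the minimum, all with a ratio above 1, though the interval held 1 for Mir21a and Mir214, and 4 were called. Mir143 of smooth muscle and stroma had 4089 and 117 reads (4.29, 3.57 to 5.20). Mir202 and Mir503 were called too, as was Mir145a with 142 reads against 2. The list made up 11.03% and 3.81% of microRNA inserts (2.89, 2.66 to 3.16), and only Mir212 of its detected members had no read in the 19-30 nt library. The blood list had 5 hairpins over the minimum, all above 1, of which Mir451a was called. Mir486 had 129 reads against 6.5. Mir142 and Mir150, markers of white blood cells, had 36 and 16 reads in the 19-24 nt library and none in the other. The lower limit of the ratio was 1.14 for Mir142. It was 0.474 for Mir150, which was below the minimum, so an even share is possible there. The blood list summed to 0.920% and 0.0792% (11.6, 6.55 to 22.9), and to a ratio of 4.34 without Mir451a. Mir155 of lymphocytes, which is not in the blood list, went the other way, as given above. Liver and muscle lists had no hairpin over the minimum, with Mir122 of hepatocytes at 0 and 3 reads. Whether other cells of the follicle had a part in the contrasts between the libraries was not tested, and fewer cells of a type cannot be told apart from less RNA per cell.

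The remaining families and clusters differed in side and size. The let-7 list, which includes miR-98, had 12 hairpins over the minimum, 10 with a ratio below 1 and 2 of them called, those of let-7a, and it made up 16.1% and 30.5% of microRNA inserts (0.530, 0.513 to 0.547). Mirlet7c-2, with 2039.5 and 211 reads, stood at 1.19. In the miR-17-92 list and its paralogs, linked to cell proliferation, Mir20a (318 and 423 reads) and Mir93 (31 and 92) were called toward the 19-30 nt library, whereas Mir25 reached 3.98 with 518 and 16 reads. The miR-30 list (5 hairpins) and the miR-23/24/27 list (6) had none called, with summed ratios of 0.517 and 1.07. In the list of miR-99, miR-100 and miR-125 all 6 hairpins were above 1 and 3 were called, led by Mir99a with 1476 reads against 12 (15.1, 8.62 to 29.3), and the list summed to a ratio of 6.64 (5.28 to 8.46). The imprinted Dlk1-Dio3 region, whose microRNAs are made from the maternal chromosome, had 24 hairpins over the minimum, 22 above 1 and 9 called, with a summed ratio of 3.93 (3.27 to 4.75). Mir379 had 536 and 26 reads there and Mir127 522 and 6. Of that list 17 hairpins had reads only in the 19-24 nt library, from Mir370 with 142 down to some with a single read. A count of 0 in the other allows up to 0.0207% of its microRNA inserts. The 19-30 nt library had 14512 microRNA inserts against 118204, and 10 of all 209 compared hairpins had no read in it. The same count over all 756 hairpins with reads was not made, so whether the region is unusual in this was not tested.

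**Figure D3:**
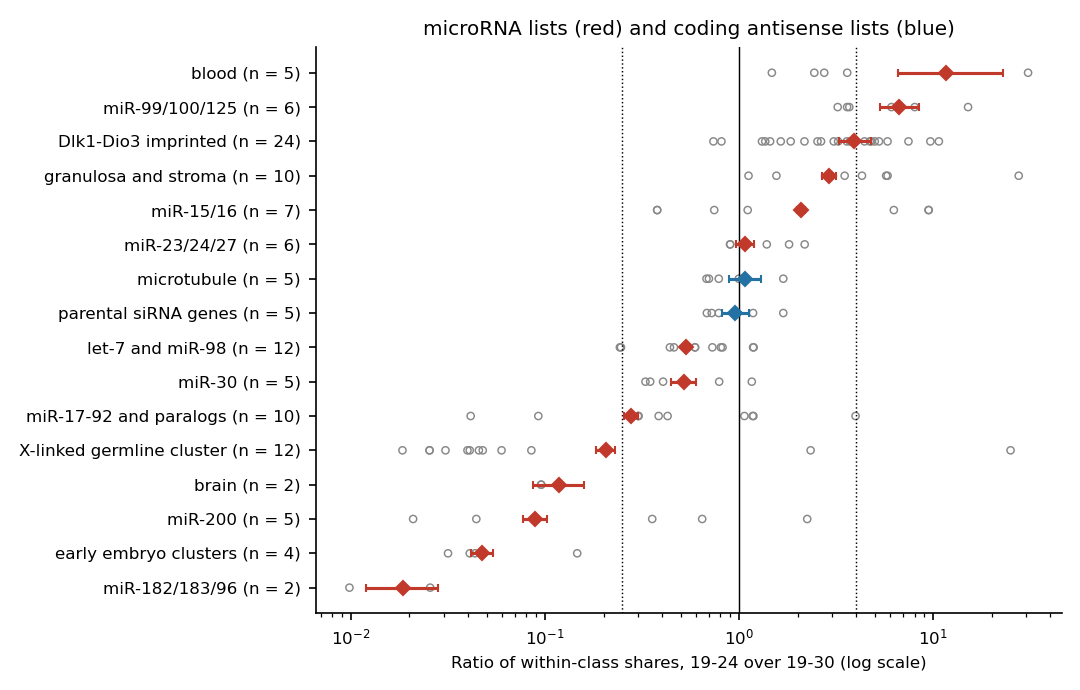
Ratio of within-class shares (19-24 nt over 19-30 nt, log scale) for each microRNA list (red) and coding antisense list (blue): diamonds with bars are the summed list with its 95% counting interval, open circles its members with 20 reads or more, and dotted lines mark 4-fold. The early embryo list stands at 0.0473 and the blood list at 11.6, while the parental siRNA and microtubule lists lie at 0.955 and 1.07.

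Mature microRNAs with a common seed could lie on opposite sides. The AGCAGCA seed was shared by 6 mature microRNAs over the minimum, whose ratios ran from 0.377 for miR-16-5p (3200 and 1041 reads) to 11.5 for miR-322-5p (18981 and 203). Summed, that seed was at 20.96% and 10.3% of microRNA inserts, and the miR-15/16 list of hairpins was at 2.08, or 0.554 without Mir322. Within the CCCUGAG seed the ratio was 3.55 for miR-125b-5p, 7.66 for miR-125a-5p and 43.9 for miR-351-5p. With the AGUGCAA seed, miR-130a-3p had 2981 reads against 34 (10.8) and miR-301a-3p 13 against 8 (0.1995). With the AAAGUGC seed, miR-106b-5p was even at 1.04, miR-20a-5p stood at 0.0891 and miR-93-5p at 0.0133. The let-7 seed GAGGUAG had the narrowest spread of these, from 0.243 for let-7a-5p to 1.18 for let-7c-5p.

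The 5′ ends of the microRNAs were compared with RefSeq. Of the microRNA inserts, 92.2% and 90.4% began within 5 nt of a RefSeq mature start, and 96.9% and 95.9% of those began exactly on it. Among 63 hairpins with 20 arm reads or more in each library, 61 had the same main arm in both libraries. The 2 exceptions were Mir17, with 25.9% of its arm reads on 5p against 80.7%, and Mir93, with 32.3% against 100%. In 5 hairpins the 5p share differed by more than 10 points, among them the leading Mir322 with 92.5% (92.1 to 92.8) against 76.0% (70.6 to 80.8), whose 3p strand had 1551 and 64 reads (2.98, 2.32 to 3.88). Mature sequences annotated at 23 nt or more, such as miR-93-5p, miR-20a-5p, miR-351-5p and miR-182-5p, enter only through their shorter forms. The 34 matures annotated at 23 nt had a median ratio of 0.610, and 12 of them were called toward the 19-30 nt library and 4 toward the 19-24 nt library. At 22 nt the median was 1.30 over 116 matures, with 16 and 21 called.

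Of the 8 coding genes with the largest antisense shares in each library, 6 were common to both. D10Wsu102e, an uncharacterised coding gene on chromosome 10, led both libraries with 787.68 and 2067 weighted reads, 10.8% and 11.3% of the class (0.957, 0.880 to 1.04). Its antisense inserts fell on its 3′ untranslated region, and only 3.78% of its inserts had a single place among the transcripts. Ppp2r5a, a regulatory subunit of protein phosphatase 2A, had 198.07 and 845.23 reads (0.588, 0.502 to 0.688), of which 80.5% were shared with the unconfirmed transcript Gm43622. Cwc22, a splicing factor whose inserts nearly all had a single place (96.3%), had 331 and 387.5 reads (2.15, 1.85 to 2.49). The group of C130026I21Rik, Sp140 and A530032D15Rik on chromosome 1, genes related to the nuclear body protein SP140 that share their reads, stood at 1.38, 1.46 and 1.48. Hdx, a homeobox gene on the X chromosome, had 75.5 and 68 reads from a narrow stretch of its 3′ untranslated region (2.79, 1.98 to 3.93). Gm20826 and Gm21244 on the Y chromosome had no insert with a single place, so their reads cannot be assigned to that chromosome.

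Genes known as sources of oocyte siRNAs in which a transcript pairs with an antisense pseudogene or neighbour were followed as a list. None of the 5 over the minimum was called, beside 1.55% and 0.518% of all 193 coding antisense genes in the 2 directions, and the list held 2.89% and 3.03% of the class (0.955, 0.811 to 1.12). Its median ratio was 0.785, beside 0.810 over all compared genes. Rangap1, which activates the nuclear transport GTPase Ran, had 79.556 and 118.41 reads (1.69, 1.25 to 2.26). Pdzd11, a scaffold protein, had 50 and 174 (0.722, 0.516 to 0.993) and the kinesin Kif4 30 and 96 (0.785, 0.503 to 1.19). These genes overlap head to head on the X chromosome, and what is antisense to one is sense to the other. The autophagy receptor Optn had 35 and 129 reads (0.681, 0.455 to 0.997) and the phosphatase regulator Ppp4r1 11.5 and 24.5 (1.18, 0.531 to 2.47). Below the minimum were the dynein light chain Dynll1 with 3.47 and 10.161 reads and the histone deacetylase Hdac1 with 0.65359 and 0.48956, and the cyclin-dependent kinase Cdk1 had no antisense read. The microtubule list, with 5 genes over the minimum and none called, stood at 1.07 (0.884 to 1.29), and at 0.784 without Rangap1, which both lists hold; 4 of its 5 genes were below 1. The list of oocyte growth and zona pellucida genes had 1 gene over the minimum, and the RNA silencing genes none.

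Of the 4 called coding antisense genes, 3 leaned to the 19-24 nt library. Fgg, the gamma chain of fibrinogen, held 1.40% of the class in the 19-24 nt library and a single read, 0.00548%, in the other, a ratio of 256.1 before the count of 1 was raised (44.9 to 10214). Of its reads in the 19-24 nt library 94.1% were 1 insert of 19 nt, the one printed above, which ends in cca. No genome or transfer RNA sequence was searched, so whether this insert came from Fgg was not tested. The ratio is that of the insert rather than of antisense RNA along the gene. Yipf1 was at 33.032 and 3.0801 reads (26.9) and Fbxo34 at 12.687 and 7.9044 (4.03). Afg3l2, a mitochondrial protease subunit, was the single gene called toward the 19-30 nt library, with 4.7961 and 48.34 reads over 89 distinct inserts (0.249, 0.0752 to 0.632). It lay at the 4-fold line and was no longer called with every match counted in full (0.896) or with a match over 18 nt (0.335).

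Pseudogenes had the narrowest spread of ratios of the 4 classes. Gm7162 and Gm16574, neighbours on opposite strands of chromosome 17 at 12819819 to 12820842 and 12818793 to 12819537, were first and second in both libraries. Gm7162 had 546.5 and 1621.2 reads (0.922, 0.835 to 1.02) and Gm16574 503.5 and 882.17 (1.56, 1.40 to 1.74). Inserts antisense to the pseudogene were 18.5% and 15.2% of the reads of Gm7162 and 74.0% and 75.8% of those of Gm16574, and 78.7% of the antisense reads of Rangap1 also matched Gm7162. Gm31941 on chromosome 7 had 138.5 and 367 reads (1.03, 0.843 to 1.26), 99.3% and 99.2% of them antisense, and all of them fell also on the lncRNA C86187 of the opposite strand. Gm12424 had 93.107 and 364.12 reads (0.699, 0.551 to 0.880). The single called pseudogene was Gm7224, with 19.083 and 9.1667 reads (5.69, 2.47 to 14.2). Among the pseudogenes with 50 reads or more, the highest ratio was 2.74 for Gm6018 and the lowest 0.512 for Gm9403.

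Of the 5 lncRNA genes with the highest ratios among those with 50 reads or more, 4 were loci that resemble ribosomal RNA. Gm42418, on chromosome 17 at 39846958 to 39848788, took 15.0% of lncRNA inserts in the 19-24 nt library with 1752 reads and 0.687% in the other with 187 (21.9, 18.8 to 25.6). AY036118 overlaps it on the opposite strand, and all of its 1275 and 143 reads were counted for Gm42418 as well. AA474408 with 204.86 and 18.523 reads, Gm15564 with 76.886 and 7.1429 and Gm26917 with 51 and 8.5 completed the group. Gm42418, AY036118 and Gm26917 lie in a stretch known to resemble ribosomal RNA, and AA474408 and Gm15564 shared 93.6% and 96.6% of their reads with Lars2. The 5 were set apart as ribosomal-like after their values were seen. Without them the called lncRNA genes numbered 5 instead of 12, all toward the 19-24 nt library, and the median ratio was 0.942 instead of 0.785. Ribosomal RNA itself was not searched, and its part in the class was not tested.

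Of the other called lncRNA genes, Gm47549 had 52.744 and 5.3303 reads (23.1, 9.52 to 70.9), 52 of the first from 1 insert of 19 nt that, like that of Fgg, ends in cca. Whether that insert came from Gm47549 was likewise not tested. The nuclear RNA Malat1 had 22.028 and 4.0259 reads (12.8, 4.35 to 50.7). Among the nuclear and small nucleolar host RNAs 2 genes met the minimum, and the imprinted Kcnq1ot1 was not called, with 22.094 and 72.694 reads (0.710, 0.420 to 1.16). Gm12505, B230208H11Rik and Gm20400, with 17.25 to 23 reads in the 19-24 nt library, were also called toward it. Gm12735, with 6 and 59 reads (0.237, 0.0838 to 0.548), and Gm43378, with 3.5565 and 33.279, were the 2 called toward the 19-30 nt library, and neither was called once the 5 ribosomal-like loci were left out. C86187, the antisense partner of Gm31941, had 154 and 399.17 reads (0.901, 0.743 to 1.09). Gm43622, which led the class in the 19-30 nt library, had 243.52 and 857.87 (0.663, 0.572 to 0.765).

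**Figure D4:**
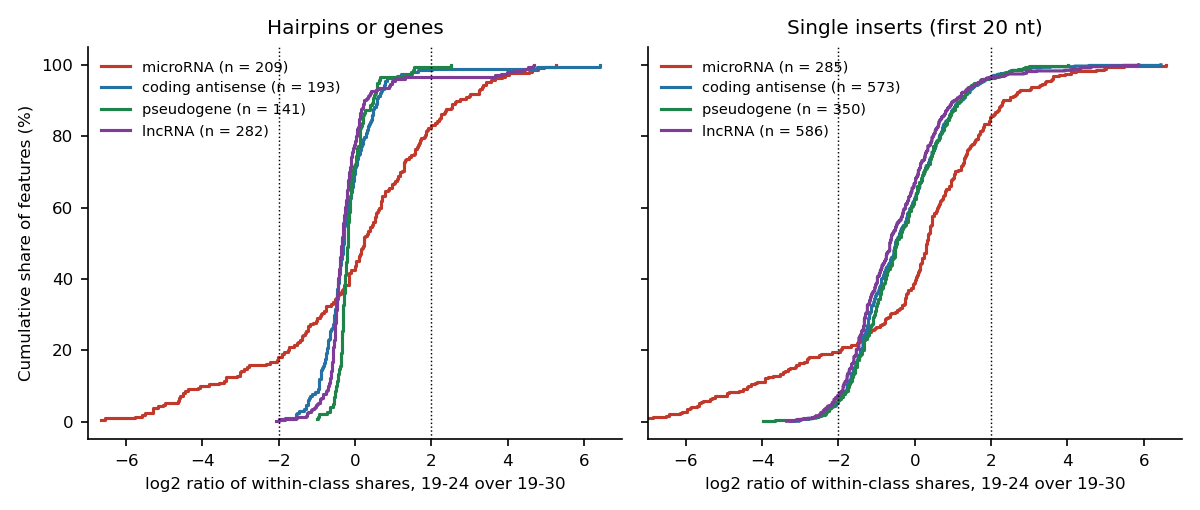
Cumulative share of features (%) by log2 ratio of within-class shares, for hairpins or genes (left) and for single inserts compared over their first 20 nt (right), with 4-fold marked by dotted lines. On the left the microRNA curve is the widest, with an SD of 2.42 against 0.47 to 0.94, and on the right the other classes widen to SDs of 1.19 to 1.31.

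Single inserts of the coding antisense, pseudogene and lncRNA classes, which have fewer reads each than their loci, had more varied ratios. Compared over their first 20 bases, with at least 20 reads, 53 of 573 coding antisense inserts (9.25%), 34 of 350 pseudogene inserts (9.71%) and 64 of 586 lncRNA inserts (10.9%) differed by 4-fold or more, against 98 of 285 microRNA inserts (34.4%). The SD of the log2 ratio was 1.24, 1.19 and 1.31 in the first 3 and 2.57 for microRNA. This comparison was chosen after the values were seen. Of the 2 Cwc22 inserts printed above, the first had 47 and 11 reads, 13.8% and 2.81% of the antisense reads of the gene, and the second 18 and 69, 5.28% and 17.6%. Each was printed as the most frequent of its gene in one of the libraries, and that choice favours opposite ratios, here and for Rangap1 and Gm31941. Of the 11 Cwc22 inserts over the minimum, 1 was past 4-fold in each direction. The Rangap1 inserts, whose first bases lie 3 nt apart, had 72 and 41 reads against 48 and 150. Both were also the most frequent inserts of the pseudogene Gm16574, so these reads are not those of Rangap1 alone. The Gm31941 inserts start 1 nt apart, the one beginning with G having 69 and 145 reads and the one beginning with T 31 and 181, and neither was past 4-fold. The Ppp2r5a insert, which also led Gm43622 in the 19-30 nt library, had 20 and 306 reads over all its places. The leading Gm7162 insert, with 84 reads in the 19-24 nt library, kept a similar share of its locus (10.9% and 8.88%). Over the leading loci, Gm7162 had 34 inserts over the minimum with ratios from 0.0609 to 6.25 and D10Wsu102e 113 with ratios from 0.110 to 6.12.

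Most distinct coding antisense, pseudogene and lncRNA inserts were seen in a single library, at few reads each. Weighted reads per distinct insert were 0.639 and 0.842 for coding antisense, 0.615 and 0.873 for pseudogene and 0.919 and 1.22 for lncRNA. For microRNA they were 59.3 and 12.6. A read of several places counts in part here, so values below 1 are not the reads seen per insert. Unweighted, coding antisense had 19849 and 54243 reads over 11373 and 21664 distinct inserts. At so few reads an insert present in both libraries can be missed in 1 of them, so the counts below do not show unlike pools. Of the distinct coding antisense inserts, 41.3% of those in the 19-24 nt library and 21.7% of those in the 19-30 nt library were in both, and these held 55.0% and 45.8% of the reads. Pseudogene inserts gave 41.3% and 21.5%, and lncRNA inserts 40.2% and 22.9%. For microRNA 36.5% and 62.9% of the distinct inserts were shared, but they held 93.8% and 97.6% of the reads. The 10 most frequent inserts held 46.1% and 44.0% of the microRNA reads and 5.27% and 3.31% of the coding antisense reads.

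The share of reads with a first U was lower in the 19-24 nt library in all 4 classes, though over distinct inserts it was 0.331 percentage points higher there in coding antisense. Inserts of 22 nt made up 73.5% and 72.3% of microRNA reads, 48.2% and 51.5% of coding antisense reads and 48.5% and 51.9% of pseudogene reads. In lncRNA they were 41.8% and 49.5%, with 19 nt inserts at 9.71% and 2.89%. Coding antisense inserts of 19 nt were 5.20% and 2.36%. Of the Gm42418 reads 31.2% and 40.6% were 19 nt long. The libraries were not sized alike, since an insert of 22 nt leaves only 4 linker bases in a read of 26 nt. The base after the 20 matched ones differed or was uncalled in 49% and 8.68% of inserts. Cut to 26 nt, the 19-30 nt library had 22 nt shares of 72.0%, 51.4%, 51.5% and 49.5% in the same class order. Whether base quality at the linker altered the length shares was not tested. A first U, common in small RNAs bound by Argonaute proteins, was seen in 54.7% (53.6 to 55.9) and 57.3% (56.54 to 57.97) of coding antisense reads and in 52.6% and 58.4% of pseudogene reads. It was seen in 48.4% and 57.3% of lncRNA reads. In microRNA the difference was wider, 52.1% (51.8 to 52.4) and 68.8% (68.1 to 69.6), and a first C was at 24.0% and 5.48%. Mature miR-322-5p, which begins with C, alone held 16.1% and 1.40% of the microRNA reads. Antisense inserts were 38.9% and 44.3% of all inserts on coding exons, 57.6% and 54.1% on pseudogenes and 36.1% and 37.2% on lncRNA genes.

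**Figure D5:**
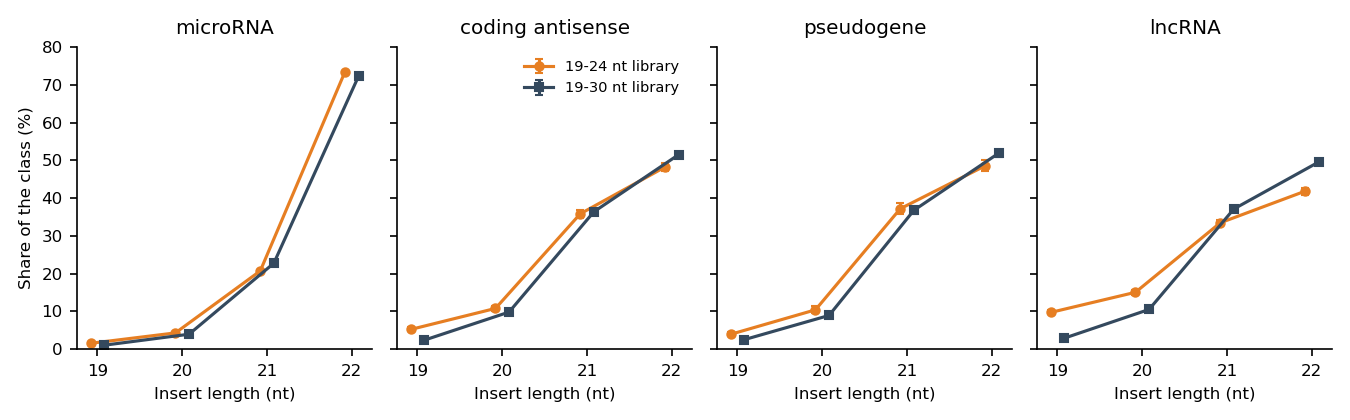
Share of each class (%) by insert length of 19 to 22 nt, in the 19-24 nt (circles) and 19-30 nt (squares) libraries, with 95% Wilson intervals for counting error. The microRNA lines peak at 22 nt with 73.5% and 72.3%, and the lncRNA lines part at 19 nt with 9.71% and 2.89%. The libraries were not sized alike, since a read of 26 nt leaves only 4 linker bases after an insert of 22 nt.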

How the data were processed

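The deposited files hold no counts: they are sequencing reads with base qualities, still joined to the 3′ linker. Per the labels, total RNA was size-selected on polyacrylamide gels, ligated, amplified and sequenced. The mapping made by the authors was not given in the sources used here. All counts were therefore made from the reads, and the comparisons planned were kept.

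The linker was read from the reads themselves and located with at most 20% mismatches over at least 4 called bases in reads of 26 nt, or 6 in reads of 36 nt. Linker-only reads were 7.20% and 10.96% of the 19-24 nt and 19-30 nt libraries. The first 20 nt of each insert (19 for inserts of 19 nt) had to match perfectly 1 of 141767 GENCODE M21 transcripts (GRCm38), on either strand. Base 21 differed from the transcript or was uncalled in 49.0% and 8.68% of inserts, so no insert was compared beyond base 20. A read with several places was divided equally among them, and reads with over 1000 places or of low complexity were left out. Reads with a single place were 68.5% and 30.2% of matched reads. No genome, transfer RNA or ribosomal RNA sequence was searched. An insert sense to a microRNA gene was counted as microRNA. A pseudogene or lncRNA read could lie on either strand outside coding sense, and 3.45% and 3.24% of coding antisense reads also lay on lncRNA genes.

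Ratios carry conditional binomial intervals and shares Wilson intervals. Named are the 8 features with the largest share in each library and, with 50 reads or more, the 5 highest and 5 lowest ratios of a class, plus the 2 list members with most reads in each direction and the whole list of parental siRNA genes. Called features of fewer reads, loci set apart and single inserts were named after their values were seen. Members and lists were chosen with earlier results of these data known. Alternatives were unique matches, full counting, other minimums, a shorter match, 21 and 22 nt inserts, shares of all matched inserts (RPM), distinct inserts and 36 nt reads cut to 26 nt. Scripts were tested on simulated data and used python 3.11.15, numpy 2.4.6, pandas 2.3.3, scipy 1.17.1 and matplotlib 3.10.9.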

Additional observations from a re-analysis of the deposited data

How the results depend on the processing

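No paired analysis was possible because there was 1 library for each window, and no replicate could be left out. The share of matched inserts in the 19-24 nt library over that in the 19-30 nt library (4.90 for microRNA, 0.240 for coding antisense, 0.220 for pseudogene and 0.258 for lncRNA) became, in that order, 2.69, 0.124, 0.101 and 0.245 with reads of a single place, 6.13, 0.848, 0.803 and 0.815 with every match counted in full, 4.77, 0.225, 0.209 and 0.220 at 21 and 22 nt, and 3.25, 0.786, 0.744 and 0.938 over distinct inserts. It was 5.05 for microRNA with a match over 18 nt and 0.213 for lncRNA without the 5 ribosomal-like loci, an alternative chosen after seeing the data. The microRNA side stayed above 1 and the others below 1 under each of these.

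The counts of features past 4-fold depended on scale and minimum. At the main setting 209 hairpins, 193 coding antisense genes, 141 pseudogenes and 282 lncRNA genes were compared, and RPM kept these numbers. The number compared changed with the minimum and with the way of counting. The counts below are therefore not shares, and do not show whether differences were more or less common. Called hairpins (73) numbered 48 at a minimum of 100 reads, 346 with none, 149 on shares of all matched inserts (RPM; 130 higher in the 19-24 nt library and 19 lower), 259 with full counting and 0 over distinct inserts, where 1 hairpin met the minimum. Called coding antisense genes (4) numbered 1, 9, 144 (142 of them toward the 19-30 nt library), 48 and 0 in that order, and 2 at 21 and 22 nt. Called pseudogenes (1) numbered 0, 11, 118 (all toward the 19-30 nt library) and 11 in the first 4 of these, 4 with reads cut to 26 nt and 4 with a match over 18 nt. Called lncRNA genes (12) numbered 3, 22, 223 (216 toward the 19-30 nt library), 53 and 7, then 6 at 21 and 22 nt, 23 with reads of a single place, 5 without the 5 ribosomal-like loci, and 6 with both. In RPM, ratios are scaled by the class ratios above by construction, and Mirlet7a-1 and Mirlet7a-2 turned to 1.21 and 1.19.

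Differences are given as the 19-24 nt minus the 19-30 nt library, in percentage points. The antisense share (coding -5.41, pseudogene 3.46, lncRNA -1.11) was -7.32, 8.40 and -7.93 with reads of a single place, and for lncRNA -2.58 over distinct inserts. The first U share (microRNA -16.7, pseudogene -5.77, lncRNA -8.90, coding antisense -2.53) was -12.7, -9.01 and -23.8 for the first 3 with reads of a single place, and -10.2, -1.02, -4.37 and 0.331 over distinct inserts, the last with its sign turned. The 22 nt share (coding antisense -3.28, lncRNA -7.72, microRNA 1.18) was -9.39, -22.5 and 2.04 with reads of a single place, and for lncRNA -4.96 and microRNA -7.37, sign turned, over distinct inserts. The cause of these changes was not tested. Depth limits a feature without reads to at most 0.00254% and 0.0207% of microRNA inserts in the 19-24 nt and 19-30 nt libraries, 0.0413% and 0.0164% of coding antisense, 0.0664% and 0.0243% of pseudogene and 0.0257% and 0.0110% of lncRNA inserts.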

Other observations

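Hairpins next to Mir322 on the X chromosome, between 53047997 and 53054349 on the minus strand, lay on the same side as Mir322, an observation made after their values were seen. Mir503 had 605 reads against 13 in the 19-30 nt library (5.71, 3.32 to 10.8). Mir450-1 had 945.5 against 8 (14.5) and Mir450-2 929.5 against 7 (16.3), with shared mature sequences. Mir542 had 163 reads against 1 and Mir450b 124 against 2. With Mir322 at 9.44 and Mir351 at 38.6, each of these 7 hairpins had the larger share in the 19-24 nt library.

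Pairs of inserts on opposite strands of the same exons were counted by the length over which they overlap. A span of 20 nt made up 6.10% of the pairs with spans of 10 to 30 nt in the 19-24 nt library (902 pairs). In the 19-30 nt library it made up 6.09% (2363 pairs). An overlap of 10 nt, the one known from piRNA pairs, made up 3.22% and 3.09%. Only the short inserts were paired and longer ones did not enter, so piRNA pairing was not tested. Neither 20 nt nor 10 nt stood apart from other spans. An overlap of 18 nt made up 6.10% and 5.755%, and one of 29 nt 3.10% and 3.39%. The pairs therefore showed no clear peak at 20 nt.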
